A study of Homo sapiens with 12 samples.

Results

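PAX2, PAX8, LHX1, HNF4A, EMX2, WT1, CDH6 and CDH16 were followed as 8 genes of the renal lineage, 6 of them transcription factors and 2 of them cadherins. They were taken by symbol, and each matched 1 of the 58302 genes in the files. The libraries came from 769-P and ACHN, established human renal carcinoma lines that the labels call clear cell renal cell carcinoma cells. Each line was transfected for 48 h with siRNA against NUF2, a subunit of the kinetochore complex NDC80 (siNUF2), or with a control siRNA (siControl), giving 4 groups of 3 replicate libraries. Per the study the NUF2 siRNA was a mix of 2 sequences, though its methods do not say so for the sequenced libraries. The lines were kept in different media, so that line and medium cannot be told apart. Levels are FPKM (fragments scaled to exon length and to library depth), so genes can be set side by side within a library. Since libraries were made from bulk RNA, fewer cells with a transcript and less of it per cell cannot be told apart.

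PAX2 and PAX8 are paired-box factors that together specify the nephric lineage in the embryo. PAX8 stays on in adult tubules and in most renal carcinomas, and pathologists use its protein to recognise renal tumours. LHX1, a LIM homeodomain factor, acts in the nephric duct and in the early nephron, and EMX2 is a homeodomain factor of the urogenital ridge. WT1, a zinc finger factor, acts in nephron progenitors and later in podocytes, and HNF4A is a nuclear receptor that drives proximal tubule differentiation. CDH6 joins cells of the forming proximal tubule and is found in renal carcinoma, and CDH16, known as kidney-specific cadherin, lies on the basolateral side of tubular cells.

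On GRCh38 with GENCODE release 29, PAX8 (ENSG00000125618) lies on the reverse strand of chromosome 2 from 113215997 to 113278950, and PAX2 (ENSG00000075891) on the forward strand of chromosome 10 from 100735603 to 100829941. LHX1 (ENSG00000273706) lies on chromosome 17 from 36936785 to 36944612, HNF4A (ENSG00000101076) on chromosome 20 from 44355700 to 44434596, and EMX2 (ENSG00000170370) on chromosome 10 from 117542444 to 117549546. WT1 (ENSG00000184937) lies on chromosome 11 from 32387775 to 32435630, CDH6 (ENSG00000113361) on chromosome 5 from 31193750 to 31329146, and CDH16 (ENSG00000166589) on chromosome 16 from 66908122 to 66918984. Exons of 5 of the genes are shared with an annotated gene on the other strand. These are PAX8-AS1 (9.26% of the exon bases of PAX8), AC243773.1 (7.52% for LHX1), EMX2OS (7.82% for EMX2), WT1-AS (2.75% for WT1) and AC113386.1 (1.01% for CDH6). Whether counting used strand is not given in the sources used here, so reads in those bases cannot be assigned to one strand. CDH6 also shares 8.96% of its exon bases with the pseudogene DUX4L51 on its own strand.

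PAX2 and PAX8 are paralogs, and their sequences are shown here because the results set one against the other. Over the 13 annotated transcripts of PAX8 and the 9 of PAX2, the longest exact stretch the genes share is 20 bases. It lies in the coding sequence, across an exon junction. In a transcript of PAX8 the window around it covers chr2:113244427-113244468 and chr2:113242721-113242778 on the reverse strand, in exons 4 and 5. In a transcript of PAX2 it covers chr10:100750850-100750891 and chr10:100779498-100779555 on the forward strand, in exons 3 and 4. The shared bases are in capitals, and 74 of the 100 bases of the windows are identical.
PAX8: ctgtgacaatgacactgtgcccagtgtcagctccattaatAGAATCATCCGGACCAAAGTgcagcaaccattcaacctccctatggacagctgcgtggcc
PAX2: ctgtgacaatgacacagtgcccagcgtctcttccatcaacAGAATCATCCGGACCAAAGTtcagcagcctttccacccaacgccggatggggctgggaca
In these transcripts, then, a run of bases longer than 20 belongs to only 1 of the 2 genes.

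RefSeq windows of 250 bases before a start site (GRCh38.p14) were at hand for 5 of the 8 genes: PAX2, PAX8, HNF4A, EMX2 and WT1. A gene detected in both lines (PAX8), a gene detected in 769-P alone (WT1) and a gene at the detection limit in both (HNF4A) are shown, each up to the first base of its GENCODE gene model and with the dinucleotide CG in capitals. CG reads the same on both strands. The stretches are chr2:113278951-113279171 and chr11:32435631-32435789, both on the reverse strand, and chr20:44355449-44355698 on the forward strand.
PAX8: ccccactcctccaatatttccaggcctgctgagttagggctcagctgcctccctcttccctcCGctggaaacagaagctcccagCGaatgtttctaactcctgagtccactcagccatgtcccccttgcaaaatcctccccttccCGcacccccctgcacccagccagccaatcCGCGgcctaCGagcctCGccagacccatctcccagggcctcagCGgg
WT1: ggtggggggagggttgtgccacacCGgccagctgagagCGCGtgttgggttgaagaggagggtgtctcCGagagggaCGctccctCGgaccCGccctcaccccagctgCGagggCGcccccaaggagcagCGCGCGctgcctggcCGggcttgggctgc
HNF4A: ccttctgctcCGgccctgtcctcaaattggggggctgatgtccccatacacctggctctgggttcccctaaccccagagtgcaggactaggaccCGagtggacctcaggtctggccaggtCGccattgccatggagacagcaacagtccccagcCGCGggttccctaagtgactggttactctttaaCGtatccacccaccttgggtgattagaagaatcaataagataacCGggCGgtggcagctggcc
The full window of 250 bases held CG 11 times for PAX8, 19 times for WT1 and 8 times for HNF4A. Of the 35116 windows in the table, 50.3% held at least as many as PAX8, 34.6% as many as WT1 and 56.3% as many as HNF4A. The median over all windows was 11, and binding or methylation at these windows was not analysed here.

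Recovered reads numbered 26368059 to 34582356 per library. NUF2 with siNUF2 was at 20.1% of the siControl mean in 769-P (limma adjusted p = 0.00129) and at 27.9% in ACHN, without overlap in either line. In ACHN its adjusted p was 0.224, and 0.0122 with the replicate number as a term. Of the 5 markers of renal tubular epithelium that are not among the 8 genes, 3 averaged at least 0.5 FPKM under siControl in 769-P (KRT8, KRT18 and EPCAM) and 5 in ACHN. KRT19 (0.183 FPKM) and CDH1 (0.00183 FPKM, 1 read) were the exceptions in 769-P. Of 5 markers of clear cell tumours, 2 reached that level in 769-P and 3 in ACHN. VIM stood at 144 ± 16.5 FPKM in 769-P and 152 ± 25.1 in ACHN (SD, n = 3), ANGPTL4 at 1.14 ± 0.285 and 23.8 ± 10.2, and NDUFA4L2 at 0.0272 ± 0.0192 and 3.29 ± 0.762. EGLN3 (0.247 ± 0.0532 and 0.00777 ± 0.00667 FPKM) and the carbonic anhydrase CA9 (0.0254 ± 0.0104 and 0.0394 ± 0.0255) were below it in both. Leukocyte and endothelial markers each summed to at most 0.469 FPKM in any library. Both ACHN libraries numbered 2 stood apart from the other 4 libraries of that line: 288 of 15116 genes (1.91%) lay at least 2-fold outside the range of the others in both, against 166 for replicate 1 and 26 for replicate 3, and 12 to 23 for the replicates of 769-P. PAX8 was among the 224 of those genes that lay below, so results in ACHN are given with and without replicate 2.

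Under siControl the 8 genes spread from over 100 FPKM to no read at all. PAX8 was the most abundant of them in both lines and EMX2 and HNF4A were at the detection limit in both. WT1 and CDH6 were expressed in 769-P and at or near 0 in ACHN. The remaining 3 genes, PAX2, LHX1 and CDH16, were found in both lines at different levels.

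**Figure D1:**
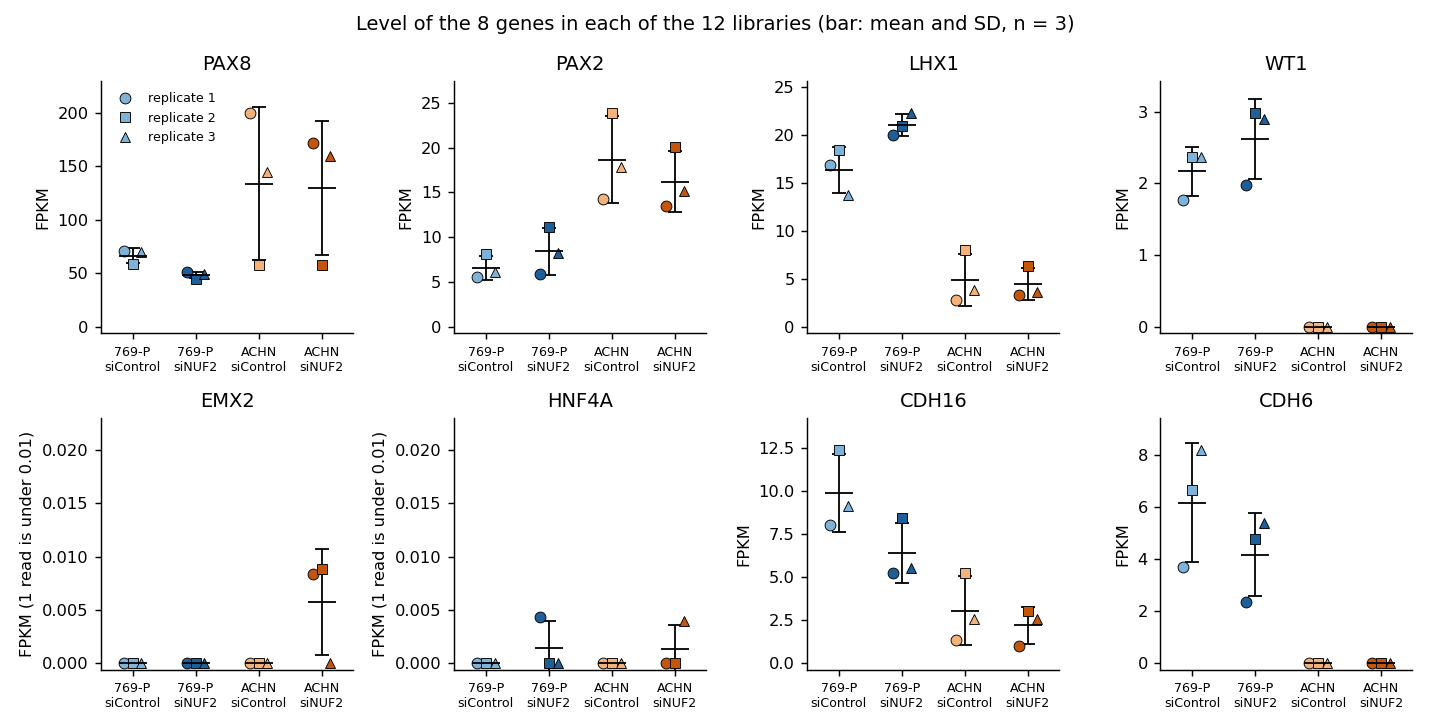
FPKM of each of the 8 genes (1 panel each, linear axis from 0) in the 12 libraries, by group. Points are libraries with the replicate number as the symbol, and bars are the mean and SD of 3 libraries. In ACHN the squares (replicate 2) of PAX8 lie at 57.1 and 57.6 FPKM, below all other ACHN libraries, while those of PAX2, LHX1 and CDH16 lie above the other ACHN libraries. The axes of EMX2 and HNF4A span single reads.

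In 769-P, PAX8 stood at 70.6, 58.6 and 69.8 FPKM under siControl, a mean of 66.3 ± 6.73 (SD, n = 3). LHX1 came next with 16.9, 18.4 and 13.8 FPKM, a mean of 16.4 ± 2.38. The range of PAX8 lay far above that of LHX1. CDH16 stood at 8.04, 12.4 and 9.14 FPKM, PAX2 at 5.52, 8.06 and 6.07, and CDH6 at 3.68, 6.63 and 8.19, so that the last 3 overlapped and their order was within the spread of the libraries. WT1 was the lowest of the 6 detected genes, with 1.77, 2.37 and 2.36 FPKM, below every library of the others. Among the 14155 genes tested in 769-P, 95.6% lay below the siControl mean of PAX8, 79.0% below that of LHX1 and 30.7% below that of WT1.

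In ACHN, PAX8 stood at 199, 57.1 and 144 FPKM under siControl (mean 134 ± 71.8), the second value being that of replicate 2. It was still the highest of the 8 genes in each library. PAX2 stood at 14.3, 23.8 and 17.8 FPKM (mean 18.6 ± 4.85), above LHX1 in every library. LHX1 with 2.83, 8.02 and 3.80 FPKM and CDH16 with 1.38, 5.24 and 2.57 overlapped. Among the 15116 genes tested in ACHN, 98.4% lay below the mean of PAX8, 83.8% below that of PAX2, 51.0% below that of LHX1 and 39.4% below that of CDH16. The order of PAX2 and LHX1 thus differed between the lines: LHX1 was above PAX2 in all 6 libraries of 769-P and below it in all 6 of ACHN.

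WT1 had no read in any of the 6 ACHN libraries, which allows a level of up to 0.00694 FPKM over the 3 siControl libraries at 3 reads for the group. With 843 reads in 769-P siControl, it was at least 315-fold higher there, and at least 377-fold higher with siNUF2. CDH6 had 1 read in the ACHN siControl libraries against 7257 in 769-P, a ratio of 8123 with an exact 95% counting interval from 1457 to 320871. With siNUF2 it had 3 reads against 4667, a ratio of 1805 (617 to 8754). These bounds and intervals cover counting error only. A level of at least 1 FPKM in all 6 libraries of 769-P with at most 0.01 FPKM in all 6 of ACHN was found for 35 of 11039 genes (0.317%), and both WT1 and CDH6 were among them.

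EMX2 had no read in the 6 libraries of 769-P and in the siControl libraries of ACHN, and 1 read in each of 2 ACHN siNUF2 libraries. For HNF4A there was 1 read in 1 siNUF2 library of each line and none elsewhere. At 3 reads per siControl group these counts allow up to 0.00979 FPKM of EMX2 in 769-P and 0.00875 in ACHN, and up to 0.00437 and 0.00390 of HNF4A. Expression of these 2 factors was not detectable at this depth, and they did not pass the filter on low values in any comparison. The related factor HNF4G, by contrast, averaged 22.2 ± 4.73 FPKM in 769-P and 2.85 ± 0.441 in ACHN under siControl.

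The lines were then compared in the siControl libraries, with limma on log2(FPKM + 0.1) and Benjamini-Hochberg adjustment over 15376 genes. Most genes were called here: 61.5% of the genes tested differed at an adjusted p under 0.05, 32.2% of those tested being higher in 769-P and 29.3% lower. WT1 and CDH6 passed the filter on low values through the 769-P libraries alone, so their calls (adjusted p = 8.84e-06 and 1.37e-05) add nothing to the reads given above. Of the 4 genes found in both lines, LHX1 and CDH16 were called higher and PAX2 lower in 769-P, while PAX8 was not called.

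LHX1 was 3.70-fold higher in 769-P (log2 fold change 1.89, SE 0.361, adjusted p = 0.00367), and its lowest 769-P library (13.8 FPKM) lay above its highest ACHN library (8.02 FPKM). CDH16 was 3.64-fold higher in 769-P (1.86, SE 0.446, adjusted p = 0.00975), again without overlap. PAX2 went the other way and was 2.72-fold lower in 769-P (-1.44, SE 0.221, adjusted p = 0.00136), its ranges being 5.52 to 8.06 against 14.3 to 23.8 FPKM. In the siNUF2 libraries the same directions were called for LHX1 (2.31, adjusted p = 0.000214), CDH16 (1.62, adjusted p = 0.0121) and PAX2 (-0.93, adjusted p = 0.0161), beside 61.8% of 15266 genes.

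For PAX8 the value depended on which ACHN libraries were in the fit. The log2 fold change was -0.80 (SE 0.427, 95% interval -1.81 to 0.22, adjusted p = 0.146) with all 6 siControl libraries. Without ACHN siControl replicate 2 it was -1.32 (SE 0.168, adjusted p = 0.000978), and without ACHN siControl replicate 1 it was -0.41 (SE 0.371, adjusted p = 0.373). Leaving out any of the other 4 libraries gave values between these, none of them called. In the siNUF2 libraries it was -1.23 (SE 0.407, adjusted p = 0.0348), where all 3 ACHN libraries, 57.6 FPKM in replicate 2 included, lay above the 3 of 769-P (44.7 to 50.7 FPKM).

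**Figure D2:**
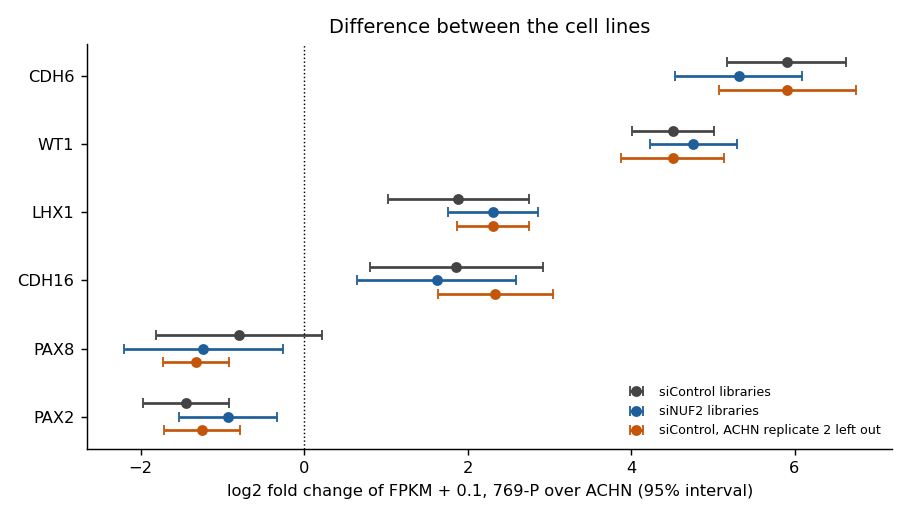
log2 fold change of FPKM + 0.1 for 769-P over ACHN, with 95% intervals, for the 6 genes tested, in the siControl libraries, in the siNUF2 libraries, and in the siControl libraries with ACHN replicate 2 left out. LHX1 and CDH16 lie to the right of 0 and PAX2 to the left in all 3, while the interval of PAX8 covers 0 only with all siControl libraries. The values of WT1 and CDH6 depend on the 0.1 added, since ACHN is at or near 0.

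The siNUF2 libraries of 769-P were compared with siControl to ask whether lineage genes moved with the knockdown. PAX8 fell to 72.8% of its siControl mean and was the 1 gene of the 6 tested that was called. In the same fit 9.98% of 14155 genes were called (745 higher and 667 lower). Adding the replicate number to the fit called 27.5% of genes, and in it CDH16 and CDH6 fell and PAX2 rose as well.

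PAX8 stood at 50.7, 44.7 and 49.5 FPKM with siNUF2, against 70.6, 58.6 and 69.8 with siControl. The groups did not overlap. The log2 fold change was -0.44 (SE 0.0977, adjusted p = 0.0360), or -0.44 with an SE of 0.0417 and an adjusted p of 0.00612 with the replicate number. Within the numbered pairs PAX8 was at 71.8, 76.3 and 70.8% of siControl, lower in 3 of 3. The call rested on 5 of the 6 libraries. It held without siControl replicate 2 (-0.53, adjusted p = 0.0422), and leaving out any other library raised the adjusted p to between 0.0615 and 0.111, with log2 fold changes between -0.48 and -0.38. In 1 fit of all 12 libraries the SE grew to 0.467 and the adjusted p was 0.700. PAX8-AS1, whose exons overlap those of PAX8, was not called (-0.17, SE 0.113, adjusted p = 0.369).

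The cadherins had larger but less even values. CDH16 stood at 5.24, 8.41 and 5.54 FPKM with siNUF2 and at 8.04, 12.4 and 9.14 with siControl. The highest siNUF2 library lay within the siControl range. The log2 fold change was -0.61 (SE 0.215, adjusted p = 0.122), and with the replicate number CDH16 fell with an adjusted p of 0.00582 (SE 0.0553). Its paired values were 65.1, 68.0 and 60.6% of siControl. CDH6 stood at 2.35, 4.78 and 5.39 FPKM with siNUF2 and at 3.68, 6.63 and 8.19 with siControl, with replicate 1 the lowest in both groups. Its log2 fold change of -0.55 had an SE of 0.375 and an adjusted p of 0.393 without the replicate number, and an SE of 0.0610 and an adjusted p of 0.00734 with it. Each of the 3 pairs was lower, at 63.8, 72.1 and 65.8% of siControl.

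The other factors detected in 769-P had higher means with siNUF2. LHX1 stood at 20.01, 21.0 and 22.3 FPKM against 16.9, 18.4 and 13.8, with no overlap. It missed the threshold in both fits (0.38, SE 0.116, adjusted p = 0.0815 and 0.0591). Groups without overlap were found for 33.3% of the genes tested in 769-P, and for 2 of these 6, PAX8 and LHX1. PAX2 stood at 5.89, 11.1 and 8.22 FPKM against 5.52, 8.06 and 6.07, overlapping, with a log2 fold change of 0.34 (SE 0.235, adjusted p = 0.406). With the replicate number PAX2 rose (SE 0.0892, adjusted p = 0.0477), its pairs being at 107, 138 and 135% of siControl. WT1, at 1.98, 2.98 and 2.90 FPKM against 1.77, 2.37 and 2.36, was not called in either fit (0.26, adjusted p = 0.418 and 0.0615).

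**Figure D3:**
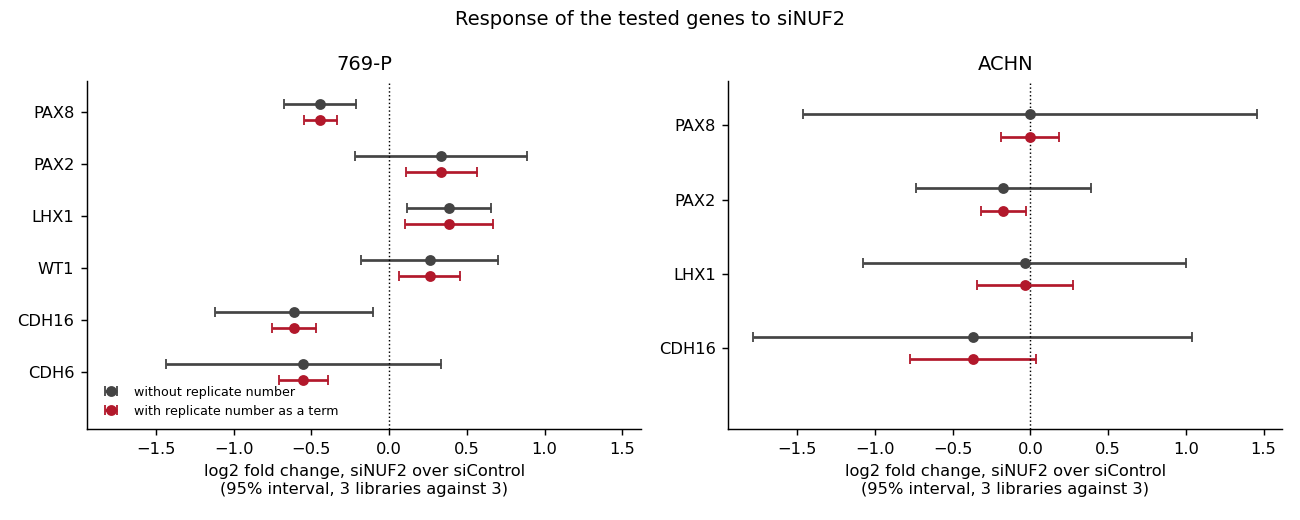
log2 fold change of siNUF2 over siControl with 95% intervals, for the 6 genes tested in 769-P and the 4 tested in ACHN, without (grey) and with (red) the replicate number as a term. In 769-P the intervals of PAX8, LHX1 and CDH16 lie on one side of 0 in both fits, and in ACHN the widest, that of PAX8, runs from -1.46 to 1.46 without the term.

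In ACHN no gene was called by limma (0.0% of 15116 genes, with 1238 at an unadjusted p under 0.05), nor by limma-voom on recovered reads. The fit with the replicate number called 1843 genes (12.2%), none of them among the 4 members tested. PAX8 stood at 172, 57.6 and 159 FPKM with siNUF2 and at 199, 57.1 and 144 with siControl. The replicates numbered 2 of both groups were nearly equal, and the other 4 libraries stood at 144 FPKM or more. The log2 fold change of PAX8 was -0.0018 with a 95% interval from -1.46 to 1.46, which narrowed to -0.19 to 0.19 with the replicate number. Leaving out replicate 2 in both groups, a choice made after seeing the data, gave -0.014 (interval -0.55 to 0.52). The interval with the replicate number does not reach the log2 fold change of -0.44 seen in 769-P, while the others do.

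PAX2 stood at 13.4, 20.1 and 15.1 FPKM with siNUF2 and at 14.3, 23.8 and 17.8 with siControl, lower in 3 of 3 numbered pairs. It was not called without (-0.17, SE 0.233, adjusted p = 0.964) or with the replicate number (SE 0.0563, adjusted p = 0.108). CDH16 stood at 1.01, 3.05 and 2.59 FPKM against 1.38, 5.24 and 2.57, and was not called (-0.37, SE 0.581, adjusted p = 0.979, and 0.186 with the replicate number). LHX1 stood at 3.34, 6.33 and 3.65 FPKM against 2.83, 8.02 and 3.80, with a log2 fold change of -0.035 (interval -1.07 to 1.00). Groups without overlap were found for 14.3% of the genes tested in ACHN and for none of these 4. With replicate 2 left out in both groups the values were -0.14 for PAX2, -0.18 for CDH16 and 0.11 for LHX1, none called.

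Whether the lines responded differently was asked with an interaction term over all 12 libraries. No gene of 16564 was called by limma (0.0%, with 776 at an unadjusted p under 0.05) or by limma-voom, and 251 genes (1.52%) were called with the replicate number. None of the 8 was among them. The difference, 769-P less ACHN, was -0.45 for PAX8 (SE 0.661, and 0.0921 with the replicate number, where the adjusted p was 0.0713). For PAX2 it was 0.50 (SE 0.364, and 0.113 with the replicate number, adjusted p = 0.0818). CDH16 gave -0.25 and LHX1 0.41, with adjusted p of 0.516 and 0.286 in the fit with the replicate number. So the call of PAX8 in 769-P and its absence in ACHN are not shown to differ.

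In ACHN these genes differed by replicate number. Both libraries of ACHN replicate 2 held PAX8 2.92-fold below the geometric mean of the other 4. CDH16 was 2.21-fold, LHX1 2.07-fold and PAX2 1.45-fold above it in the same libraries. In each of the 4 genes both libraries lay outside the range of the others. Replicate 1 had PAX8 1.99-fold above the other 4 libraries, and CDH16 2.59-fold, LHX1 1.65-fold and PAX2 1.37-fold below. Those 4 include both libraries of replicate 2, which widens the distance. Under siControl and siNUF2, PAX8 stood at 199 and 172 FPKM in replicate 1 against 144 and 159 in replicate 3. LHX1 stood at 2.83 and 3.34 against 3.80 and 3.65, and PAX2 at 14.3 and 13.4 against 17.8 and 15.1. CDH16 stood at 1.38 and 1.01 against 2.57 and 2.59. PAX8-AS1 went with PAX8, at 3.07 and 3.60 FPKM in the replicates numbered 2 against 10.2 to 15.1 in the other ACHN libraries.

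Markers of fibroblasts moved with ACHN replicate 2. They summed to 5.08 and 6.21 FPKM there and to between 1.40 and 2.33 in the other 4 libraries, through COL1A1 and PDGFRB, while COL1A2 and LUM were at most 0.0097 FPKM in all 6. The 5 markers of renal tubular epithelium other than PAX8 and PAX2 summed to 494 FPKM there under siControl, against 448 and 492 in the other libraries of that group. With siNUF2 they summed to 611 FPKM, against 512 and 606. Single markers varied more than their sum: in ACHN siControl KRT8 ranged from 57.4 to 161 FPKM and KRT19 from 210 to 380. The part of these in the levels of the 4 genes was not tested. In 769-P the replicates lay closer, and the widest gap was that of CDH6, 2.04-fold lower in replicate 1 than in the other 4 libraries.

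**Figure D4:**
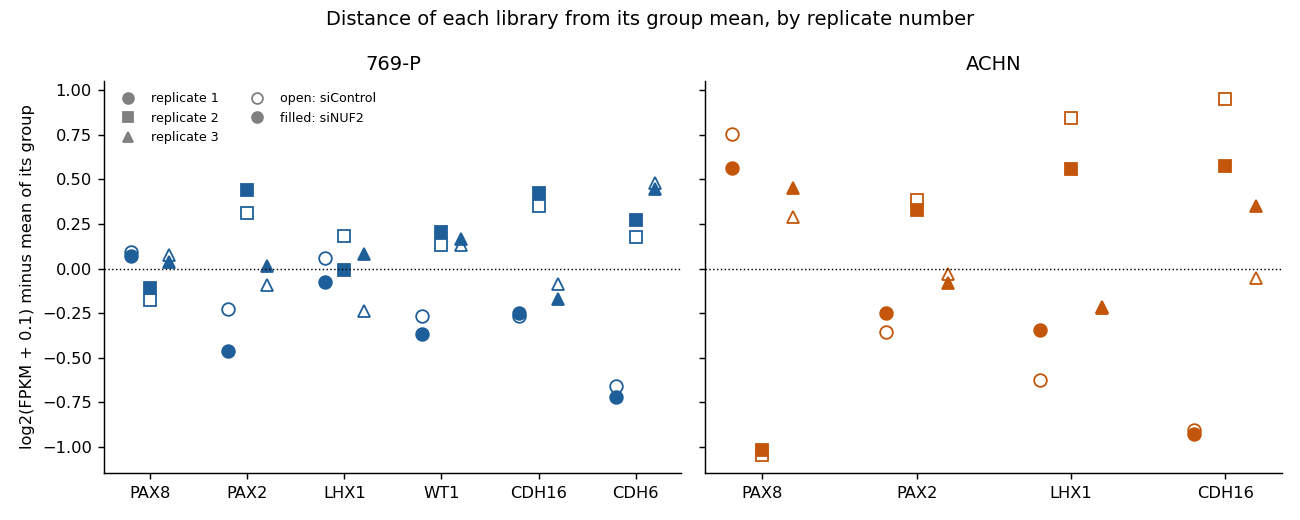
log2(FPKM + 0.1) of each library less the mean of its group, for the 6 genes tested in 769-P and the 4 tested in ACHN. Symbols give the replicate number, open for siControl and filled for siNUF2. Same-numbered libraries lie close together for most genes, and in ACHN replicate 2 (squares) is lowest for PAX8 and highest for PAX2, LHX1 and CDH16.

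Across the 12 libraries, with the mean of each line taken out, PAX8 and LHX1 ran in opposite directions (r = -0.96, and -0.90 over the 10 libraries left without ACHN replicate 2). Differences between siControl and siNUF2 were left in, so r includes the shifts with siNUF2 given above. PAX2 with PAX8 gave -0.74 in both. Without that replicate, CDH16 with PAX8 went from -0.59 to -0.0011, and CDH16 with LHX1 from 0.58 to -0.046. The genes most like PAX8 among 12930 were GRK5 (r = 0.97), RAB38 (0.97) and N4BP3 (0.97), and these fell to between 0.78 and 0.83 without ACHN replicate 2. Those most like LHX1 were S100A1 (0.96), PHLDB1 (0.95) and SMARCC2 (0.94), and these fell to between 0.76 and 0.83 without it. SMIM6 (0.93), KLC4 (0.91) and PCSK1N (0.90) were nearest to PAX2, and SERPINF2 (0.94), ATP23 (0.94) and SUPT6H (0.94) to CDH16. Over the 6 libraries of 769-P, AKR7A2 (0.997), NEO1 (0.997) and HSD17B8 (0.994) were nearest to WT1, and HGD, an enzyme of tyrosine breakdown, SMPDL3A and HGSNAT, a lysosomal enzyme, were nearest to CDH6 (0.997, 0.993 and 0.993). The points share libraries and replicate numbers, each gene named is among the 3 nearest of all those compared, and r is given as a description.

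Of 30 other transcription factors of the nephron and its lineage, 12 passed the filter in 769-P and 17 in ACHN. In 769-P their median log2 fold change with siNUF2 was -0.34, against -0.01 over all genes, and in ACHN it was -0.057 against 0.0061. In ACHN none of the 17 was called without the replicate number. With it 1 was higher and 2 lower, beside 12.2% of all genes tested. SOX9, a factor of the branching ureteric tip, stood at 1.31 ± 1.01 FPKM under siControl in ACHN and at 0.876 ± 0.622 with siNUF2 (adjusted p = 0.976).

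Between the lines under siControl, 6 of the 17 factors tested were higher in 769-P and 8 lower, beside 32.2% and 29.3% of all genes tested. HOXA11, HOXC11, HOXD11 and IRX2 had no read in 769-P siControl and passed the filter through ACHN alone. OSR1 also passed it through ACHN alone, and some other factors reached 0.5 FPKM in 3 libraries of 769-P only. The filter thus favoured the directions of these factors, and they shape the count and the median. HOXA11, one of the HOX genes of metanephric patterning, had no read in 769-P siControl against 3.92 ± 1.16 FPKM in ACHN, at least 289-fold higher in ACHN. IRX2 likewise had none against 1.92 ± 0.387 FPKM, at least 205-fold higher. HNF4G was 7.69-fold higher in 769-P (2.94, SE 0.197, adjusted p = 3.79e-05). The median over the list was -0.61, against 0.04 over all genes.

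The other cadherins were mostly silent: of 21, 4 were tested in 769-P and 5 in ACHN. None of them was called with siNUF2 in either line. Adding the replicate number gave 1 lower in 769-P and 3 higher in ACHN, beside 27.5% and 12.2% of all genes called. CDH2, the N-cadherin of mesenchymal cells and of renal tubules, was the most abundant, at 70.8 ± 5.91 FPKM in 769-P under siControl and 67.2 ± 6.26 with siNUF2. In ACHN it stood at 39.7 ± 7.85 and 43.0 ± 7.51. CDH24 stood at 9.14 ± 2.38 and 7.56 ± 1.18 FPKM in 769-P and at 7.90 ± 2.28 and 7.02 ± 1.70 in ACHN. In 769-P under siControl, CDH2 was thus above CDH6 and CDH16 in every library.

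Under siControl 1 of the 5 other cadherins tested was higher in 769-P and 3 were lower, beside 32.2% and 29.3% of all genes tested. CDH1, the epithelial E-cadherin, had 1 read in 769-P siControl and averaged 6.70 ± 2.99 FPKM in ACHN, a ratio of 3788 with a counting interval from 680 to 149658. CDH13, a cadherin held to the membrane by a lipid anchor, had 3 reads against 4.30 ± 2.08 FPKM, a ratio of 1515 (518 to 7349). CDH4 was 3.10-fold higher in ACHN (-1.63, SE 0.183, adjusted p = 0.000333). CDH1 and CDH13 reached 0.5 FPKM in ACHN only, so the filter favoured that direction for both. CDH6 and CDH1 were thus opposite: the line with one had at most 1 read of the other under siControl.

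Catenins link cadherins to the cytoskeleton, and 4 of 7 were tested in each line. In 769-P CTNNB1 (beta-catenin) fell from 33.3 ± 1.69 to 27.1 ± 0.365 FPKM (-0.28, SE 0.0637, adjusted p = 0.0379), the 1 catenin called of 4. Adding the replicate number, 2 of the 4 fell, beside 27.5% of all genes called in that fit. In ACHN none was called in either fit, with CTNNB1 at 37.0 ± 4.13 FPKM under siControl and 37.4 ± 5.78 with siNUF2, and CTNNA1 (alpha-catenin) at 51.8 ± 2.55 and 51.2 ± 3.96. Between lines CTNNA1 was 2.72-fold (adjusted p = 1.90e-05) and CTNND1 1.84-fold higher in 769-P (adjusted p = 0.000666).

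Of 16 signals and receptors of kidney induction, 4 were tested in 769-P and 5 in ACHN. NOTCH2, the receptor that sets proximal fate in the nephron, fell in 769-P from 18.9 ± 1.11 to 13.3 ± 0.597 FPKM (-0.49, SE 0.0781, adjusted p = 0.0145) and was the 1 call. In ACHN it stood at 29.8 ± 6.64 and 21.8 ± 3.16 FPKM (-0.42, adjusted p = 0.689), and fell with the replicate number (adjusted p = 0.0223). In all, 3 of the 5 were lower and 1 higher in ACHN in that fit, beside 12.2% of all genes called. GFRA1, the GDNF co-receptor of the ureteric bud, was 298-fold higher in ACHN under siControl, at 137 ± 32.0 against 0.384 ± 0.266 FPKM. It stood at 137 ± 21.4 FPKM in ACHN with siNUF2. DLL1 was 2.78-fold higher in ACHN and SPRY1 3.46-fold higher in 769-P. GFRA1 and DLL1 reached 0.5 FPKM in 3 siControl libraries of ACHN only, and SPRY1 in 3 of 769-P only. The filter thus favoured the direction of each.

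Effectors of the tubule segments were also set beside the factors. Of 24 proximal tubule genes, 8 were tested in 769-P, of which 2 fell with siNUF2 and none rose. The fit with the replicate number gave 6 lower and 1 higher, beside 27.5% of all genes called. The 2 called in both were GGT1, a brush-border peptidase, from 104 ± 10.7 to 66.8 ± 5.26 FPKM (-0.62, adjusted p = 0.0130), and HAVCR1, the injury marker KIM-1, from 156 ± 13.5 to 123 ± 7.33 (-0.33, adjusted p = 0.0479). In ACHN neither was called without the replicate number (adjusted p = 0.878 and 0.617). With it, 2 of 5 were lower, beside 12.2% of all genes called. HAVCR1 was among the 2 (96.8 ± 6.61 against 76.6 ± 11.6 FPKM, adjusted p = 0.0333).

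Between the lines 8 of the 9 proximal genes tested were higher in 769-P and 1 lower, with a median log2 fold change of 3.85 against 0.04 over all genes. AMN, ANPEP, MME and SLC7A9 reached 0.5 FPKM in 3 libraries of 769-P only, and SLC13A3 in 3 of ACHN only. The filter thus favoured their directions, and they shape the count and the median. GGT1, SLC3A1, SLC4A4 and HAVCR1 reached that level in both lines and were all higher in 769-P. ANPEP, a brush-border aminopeptidase, stood at 29.6 ± 6.34 FPKM in 769-P and 0.0127 ± 0.0175 in ACHN. GGT1 was 4.45-fold higher in 769-P (adjusted p = 1.36e-05), and AMN, the partner of cubilin, 18.3-fold. Of the 4 distal tubule and collecting duct genes tested, 3 were lower and 1 higher in 769-P. CLDN16, a tight junction protein of the thick ascending limb, was 39.6-fold lower (adjusted p = 1.99e-06) and EPCAM 14.8-fold lower. AQP3, a water channel of the collecting duct, was 8.84-fold higher, but reached 0.5 FPKM in 769-P only, so the filter favoured that direction. None of the 4 tested in each line was called with siNUF2. Adding the replicate number, KRT7 was called in 769-P (2.49 ± 0.538 FPKM under siControl, 3.75 ± 0.751 with siNUF2, adjusted p = 0.0148) and CLDN16 in ACHN (143 ± 25.5 and 110.4 ± 11.4, adjusted p = 0.0461). No gene of any list was called in the interaction, and with the replicate number GGT1 (-0.46, adjusted p = 0.0364) and KRT7 (0.83, adjusted p = 0.0466) were among those that were. So was 1 of the 6 other cadherins tested, with a lower log2 fold change in 769-P than in ACHN.

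Genes of podocytes, where WT1 stays on in the adult, were few in 769-P: 2 of 7 were tested, and both rose. SYNPO, an actin-binding protein, rose from 1.76 ± 0.476 to 3.98 ± 0.593 FPKM (1.17, SE 0.209, adjusted p = 0.0202), and PODXL, a surface sialomucin, from 1.79 ± 0.125 to 2.41 ± 0.0686 (0.42, SE 0.0989, adjusted p = 0.0417). The other 5 were under 0.5 FPKM in all 6 libraries of 769-P. In ACHN, which had no read of WT1, 4 were tested and none was called, with SYNPO at 27.02 ± 3.01 FPKM under siControl and 25.2 ± 4.22 with siNUF2. Under siControl SYNPO was 14.5-fold (adjusted p = 1.56e-05) and PLA2R1 7.21-fold higher in ACHN, 2 of the 3 podocyte genes tested. PLA2R1 reached 0.5 FPKM in ACHN only, so the filter favoured that direction.

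**Figure D5:**
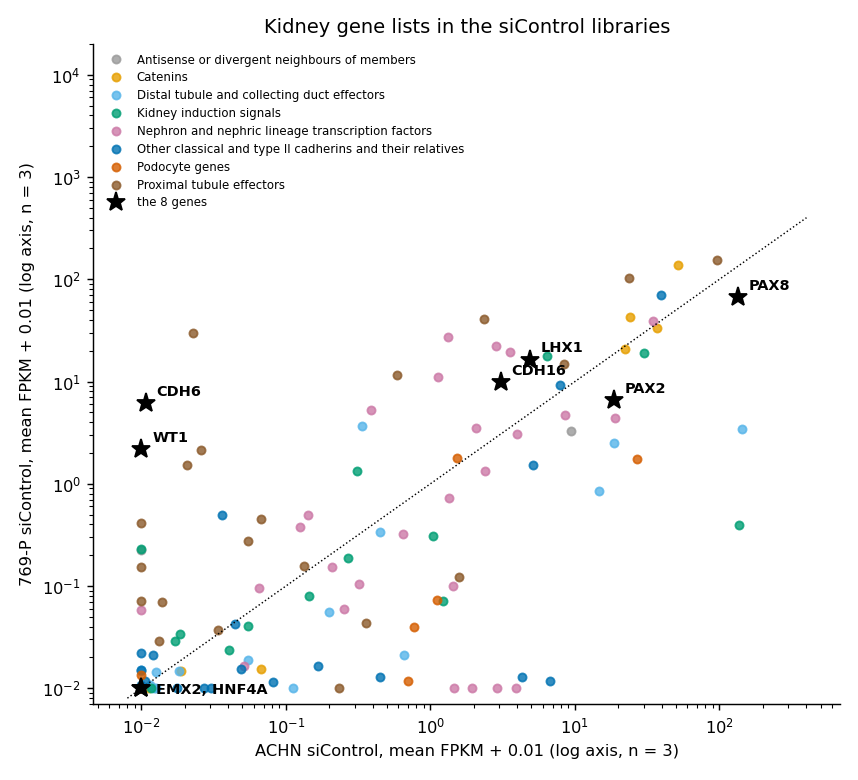
Mean FPKM + 0.01 of each listed kidney gene in the siControl libraries of ACHN (x) and 769-P (y), n = 3 each, on log axes, with the 8 genes as stars and the dotted line at equal levels. WT1 and CDH6 lie at the left edge, with 2.17 and 6.17 FPKM in 769-P, EMX2 and HNF4A lie in the lower left corner, and PAX8 is the highest of the stars in both lines.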

How the data were processed

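RNA sequencing of 769-P and ACHN cells gave 12 libraries in 4 groups of 3, grouped by the labels. The authors filtered reads with fastp and deposited FPKM, 1 value per gene and library. The submitters' processing notes list HISAT2 2.0.5, featureCounts 1.5.0-p3 and hg38, and the annotation and strand setting are not given in the sources used here. Nothing states whether replicates were separate cultures, so p-values measure the spread between these libraries. The members and gene lists were chosen with earlier results of these data known.

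FPKM are no counts, so limma 3.58.1 in R 4.3.3 was used. FPKM were rescaled within each fit by a trimmed mean of log ratios (30% of log ratios and 5% of levels trimmed), genes with at least 0.5 FPKM in at least 3 libraries were kept, and log2(FPKM + 0.1) was fitted with lmFit and a trended eBayes, 1 fit per comparison. Fold changes are on the scale of log2(FPKM + 0.1), so those of low genes are understated. P-values are two-sided, adjusted by Benjamini-Hochberg over all genes tested, and called under 0.05. The fits without the replicate number were tested on simulated data in which libraries varied independently. Those with the replicate number were not tested in this way. Exact two-sided permutation tests of 3 libraries against 3 cannot give a p below 0.1. For PAX8 in 769-P the exact p was 0.1.

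Reads were recovered from exon lengths as whole multiples (within 0.05 reads) for 34630 of the 36305 genes above 0. They gave the depth, the detection limits (3 reads per group) and the limma-voom alternative. Same-numbered libraries deviated from their group means together (correlations of 0.190 or more in 769-P, and of 0.460 or more in ACHN), so the number was taken to pair them, and a fit with it as a block is given where it changes a call. Between libraries of a group the chi-square per gene was at least 14.0, so none was a copy. Named genes are the 8 members, NUF2, up to 3 called genes of lowest p per list and comparison (or the 2 of highest mean FPKM over all libraries), and the 3 genes most like each member. Some results of the transcription factor list are not reported here. The other alternatives were median-ratio scaling, FPKM as deposited, no filter or a filter at 0.1 FPKM, pseudocounts of 1 and 0.01, all 12 libraries in 1 fit, the siNUF2 libraries for the line contrast, and each library left out. ACHN without both replicates numbered 2 was added after the data had been seen. Tables used pandas 2.3.3 with NumPy 2.4.6 and SciPy 1.17.1 under Python 3.11.15, and figures matplotlib 3.10.9.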

Additional observations from a re-analysis of the deposited data

Results flagged for a closer look

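For PAX2 the numbered pairs pointed in opposite directions in the lines. With siNUF2 it was higher in 3 of 3 numbered pairs in 769-P (log2 differences of 0.091, 0.46 and 0.43) and lower in 3 of 3 in ACHN (-0.085, -0.25 and -0.24). This opposition of every pair is what marked it. The interaction, 0.50 on the log2 scale (SE 0.364), was tested with limma and missed the threshold, with an adjusted p of 1.00, and of 0.0818 (SE 0.113) with the replicate number as a block. Within each line the groups overlapped.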

How the results depend on the processing

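In 769-P the count of genes called moved from 1412 to 635 without a filter on low values, to 700 with all 12 libraries in 1 fit and to between 357 and 1144 on leaving out 1 library. The number of the 6 tested lineage genes called moved from 1 to 0 without the filter, to 0 in the fit of 12 and to between 0 and 1 on leaving out 1 library. The replicate block gave 3898 genes and 4 of the 6 in 769-P, 1843 genes and none of the 4 in ACHN, and 251 genes in the interaction. For the line contrast it changed no call among the 8. There the block joined same-numbered libraries of different lines, a link that was not tested, so it is no check of those calls. With all 12 libraries 171 genes were called in ACHN. The interaction gave 15 genes without the filter, 2 with a pseudocount of 0.01 and 0 to 1 on leaving out 1 library. Between the lines, 3 to 6 of the 8 were called on leaving out 1 library. The lowest count came where WT1 and CDH6 no longer passed the filter, which asks for 3 libraries.

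In ACHN each of the 4 genes tested changed direction on leaving out some library: PAX2 ranged from -0.35 to 0.022, PAX8 from -0.52 to 0.51, CDH16 from -0.82 to 0.11 and LHX1 from -0.35 to 0.39 on the log2 scale. PAX8 turned positive without siNUF2 replicate 2 (0.51), siControl replicate 1 (0.38) or siControl replicate 3 (0.14), and PAX2 without siControl replicate 2 (0.022). CDH16 did so without siNUF2 replicate 1 (0.088) or siControl replicate 2 (0.11), and LHX1 without siNUF2 replicate 1 (0.13), siNUF2 replicate 3 (0.069) or siControl replicate 2 (0.39), or with replicate 2 left out in both groups (0.11). In the interaction PAX8 ranged from -0.94 to 0.088, positive without ACHN siControl replicate 2. CDH16 there ranged from -0.71 to 0.20, positive without ACHN siControl replicate 1 (0.20) or siNUF2 replicate 2 (0.050). The cause was not tested.

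Of the other settings run for the values of single genes, 345 kept direction and side of the threshold, 5 brought a value past it and 7 took one below it. Depth limited what can be said of WT1, CDH6, EMX2 and HNF4A in ACHN, where each had at most 3 reads per group.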
